A study of Mus musculus with 45 samples.

Results

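Collagens are assembled from alpha chains, and the genes of these chains were taken as every row of the count table whose symbol is Col, a number, the letter a and a number. The pattern found 44 of the 27007 genes in the table. Of these, 37 had enough counts to be tested, beside 15444 of all genes. The chains not tested were Col2a1, Col6a4, Col6a5, Col9a1, Col10a1, Col17a1 and Col24a1. All 44 symbols were matched to RefSeq genes of the mouse build GRCm38.p6, which lie on 15 chromosomes.

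The tissue was left ventricle of wild-type mice, taken at 4, 6 and 8 weeks of age, and bulk RNA was sequenced. Operations were done in the first day of life and were of 3 kinds: sham, constriction of the aorta (nAAC), and constriction of the aorta that could be undone (Rev-nAAC). All pups stayed with their mothers. Each of the 9 groups of operation and age held 5 libraries, 45 in all. The labels give neither the strain nor the age at which the constriction was undone.

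Library totals ran from 31586082 to 35965976 counts. All 15 sham libraries were male by Xist and Y-linked genes, while females numbered 3, 4 and 2 of the 5 nAAC libraries and 2, 2 and 4 of the 5 Rev-nAAC libraries at 4, 6 and 8 weeks, so operation and sex were partly confounded. For nAAC 4-week replicate 1 the title and the treatment tag differ (nAAC and sham), and the title was followed. Replicate 5 of that group had the lowest correlation with its own group, Rev-nAAC 4-week replicate 2 the highest red cell transcripts, and Rev-nAAC 8-week replicate 4 the highest fat cell transcripts. Cardiomyocyte marker genes were high in every library, with a summed level of 31519.5 to 66139 CPM (counts scaled to the library total). At 4 weeks the atrial marker gene Nppa was at 5903.89 CPM or more in every library titled nAAC, replicate 1 among them. Sham libraries of that age reached at most 129.85 CPM. Replicate 1 thus lay with its title in Nppa, and runs that group it as sham place this high level among sham libraries. Separate animals are not stated for the libraries, so p-values measure the spread between libraries, which may be technical. In bulk tissue, fewer cells of a type and less RNA per cell cannot be told apart.

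Collagen molecules are trimers of alpha chains wound into a triple helix. Fibril-forming collagens such as types I and III bear the tension of the ventricular wall, and types V and XI are minor partners that help to start fibrils and limit their width. Type IV builds the sheet of the basement membrane around cardiomyocytes and capillaries, and type VI forms beaded filaments next to it. Type VIII forms short-chain networks. The fibril-associated collagens (FACITs), among them types IX, XII, XIV, XVI and XXII, sit on the surface of fibrils or at tissue borders. Types XV and XVIII, the multiplexins, link basement membranes to the matrix, and types XIII, XXIII and XXV span the cell membrane. In the heart most fibrillar collagen is made by fibroblasts, and basement membrane chains are also made by endothelial cells and cardiomyocytes.

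Several chain genes lie in pairs. Col4a1 (chr8:11198423-11312889, minus strand) and Col4a2 (chr8:11312805-11449287, plus strand) are transcribed away from each other, and their RefSeq gene bodies overlap by 85 bases at the start. Col4a4 and Col4a3 lie head to head on chromosome 1 with an overlap of 114 bases. Col4a6 and Col4a5 lie head to head on chromosome X with 1274 bases between them, and Col3a1 and Col5a2 lie tail to tail on chromosome 1 with 24624 bases between them. The strand setting of the authors' counting is not given in the sources used here, so reads from the short overlaps cannot be assigned to 1 chain with certainty. All the chain genes named below are protein-coding. Further positions are chr11:94936224-94953042 for Col1a1, chr6:4505618-4541543 for Col1a2, chr1:45311538-45349706 for Col3a1, chr9:105689417-105828246 for Col6a6, chr16:57624256-57754737 for Col8a1, chr4:121039566-121055325 for Col9a2 and chr9:79598987-79721141 for Col12a1.

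RefSeq promoter windows of build GRCm38.p6, from 250 bases before to 50 bases after a transcript start, were held for 35 of the 44 chains, in 38 windows. The Col4a2 window (chr8:11312555-11312854, plus strand) is shown because it faces that of Col4a1, and its capitals mark the 78 bases that the window of Col4a1 shares. The windows of Col1a2 (chr6:4505368-4505667, plus strand) and Col3a1 (chr1:45311288-45311587, plus strand) are shown for the major fibril chains. Those of Col9a2 (chr4:121039316-121039615, plus strand) and Col6a6 (chr9:105828036-105828335, minus strand) belong to the chains with the largest rise and the largest fall under constriction at 8 weeks. In these last 4 windows capitals mark matches on either strand to the CCAAT box, the TATA box letters TATAAA, the GC box letters GGGCGG and the TEAD-type letters GGAATG. All are read 5′ to 3′.
Col4a2: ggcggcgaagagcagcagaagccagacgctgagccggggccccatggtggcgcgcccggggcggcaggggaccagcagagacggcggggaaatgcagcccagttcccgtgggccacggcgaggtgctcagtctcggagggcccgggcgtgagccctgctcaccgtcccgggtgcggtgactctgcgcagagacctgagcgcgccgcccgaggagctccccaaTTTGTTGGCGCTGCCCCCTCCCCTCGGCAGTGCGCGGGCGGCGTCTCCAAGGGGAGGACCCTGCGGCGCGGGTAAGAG
Col1a2: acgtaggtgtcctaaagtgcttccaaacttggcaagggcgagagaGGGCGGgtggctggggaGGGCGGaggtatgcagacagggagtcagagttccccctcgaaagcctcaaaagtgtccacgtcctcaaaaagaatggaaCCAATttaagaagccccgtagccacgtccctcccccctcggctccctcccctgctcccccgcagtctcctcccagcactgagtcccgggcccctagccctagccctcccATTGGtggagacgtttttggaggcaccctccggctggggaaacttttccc
Col3a1: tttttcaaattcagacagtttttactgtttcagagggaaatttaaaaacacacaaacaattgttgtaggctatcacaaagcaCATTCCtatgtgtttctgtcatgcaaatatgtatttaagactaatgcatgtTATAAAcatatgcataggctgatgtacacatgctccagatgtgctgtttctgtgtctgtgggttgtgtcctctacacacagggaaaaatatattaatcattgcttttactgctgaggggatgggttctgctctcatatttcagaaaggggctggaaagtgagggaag
Col9a2: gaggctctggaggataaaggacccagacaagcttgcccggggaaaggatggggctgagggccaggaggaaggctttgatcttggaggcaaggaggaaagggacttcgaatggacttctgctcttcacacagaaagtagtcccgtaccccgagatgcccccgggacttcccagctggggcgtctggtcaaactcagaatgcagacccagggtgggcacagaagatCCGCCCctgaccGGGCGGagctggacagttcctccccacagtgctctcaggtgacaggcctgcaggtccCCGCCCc
Col6a6: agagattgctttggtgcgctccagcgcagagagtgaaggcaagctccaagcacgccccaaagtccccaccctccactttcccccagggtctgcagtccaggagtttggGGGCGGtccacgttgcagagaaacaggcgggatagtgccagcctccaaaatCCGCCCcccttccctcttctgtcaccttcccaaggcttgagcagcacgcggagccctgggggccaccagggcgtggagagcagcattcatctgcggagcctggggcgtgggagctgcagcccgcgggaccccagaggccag
Across the 38 windows, CCAAT was found in 34.2% and in 37.4% of all 32851 RefSeq windows of the same length. TATAAA was found in 13.2% and 13.6%, GGGCGG in 60.5% and 35.7%, and GGAATG in 13.2% and 14.7%. The AP-1-type letters TGANTCA were found in 2.6% and 7.8%. None of these motifs holds another, and a match is a description of letters, not a bound site. The Col3a1 window held TATAAA and no GGGCGG, while those of Col9a2 and Col6a6 held GGGCGG and no TATAAA.

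Together the 44 chains took 0.414 ± 0.0410% of all counts in sham hearts at 4 weeks (mean ± SD, n = 5), 0.201 ± 0.0105% at 6 weeks and 0.204 ± 0.0433% at 8 weeks. In nAAC hearts their share was 0.397 ± 0.0926%, 0.615 ± 0.170% and 0.468 ± 0.0603%, and in Rev-nAAC hearts 0.333 ± 0.133%, 0.264 ± 0.0710% and 0.175 ± 0.0367%. Sham and nAAC libraries overlapped at 4 weeks and did not at 6 and 8 weeks. Within Rev-nAAC, replicate 3 stood above the others at 4 weeks with 0.562%, and replicate 4 below them at 6 weeks with 0.150%. At 8 weeks basement membrane chains held 38.8 ± 3.72% of collagen counts in sham, 35.0 ± 2.70% in nAAC and 51.9 ± 8.11% in Rev-nAAC hearts, and fibril-forming chains 36.9 ± 3.41%, 38.6 ± 2.80% and 26.4 ± 4.13%. For both classes sham and nAAC libraries overlapped. FACITs held 2.49 ± 0.376%, 5.52 ± 0.531% and 3.73 ± 0.534%, with every nAAC library above every sham library. In sham hearts at 4 weeks these shares were 45.3 ± 3.34%, 33.3 ± 3.09% and 1.46 ± 0.216%.

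**Figure D1:**
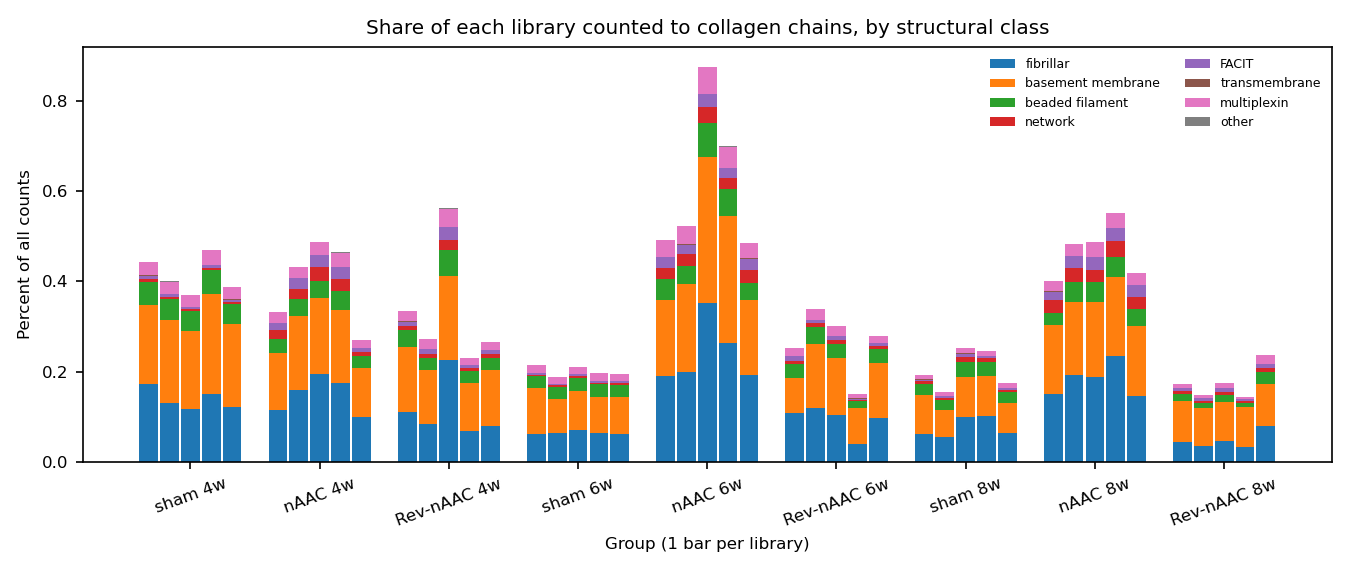
Percent of all counts taken by the 44 collagen chains (y axis) in each of the 45 libraries, 1 bar per library, stacked by structural class and grouped along the x axis by age and operation. The sham mean at 4 weeks, 0.414%, lies near the nAAC mean of 0.397%, and the groups part at 6 and 8 weeks.

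Levels of different chains were compared as CPM per kilobase of merged exons. Col4a1 and Col4a2 ranked 1 and 2 of the 44 chains in every group, at 155 ± 18.6 and 108 ± 11.3 CPM per kilobase in sham hearts at 4 weeks (SD, n = 5). Col3a1 ranked 3 in all groups except Rev-nAAC at 8 weeks, where it ranked 4, behind Col6a1. In sham hearts at 8 weeks the per-kilobase levels were 54.3 ± 8.52 for Col4a1 and 52.3 ± 10.04 for Col4a2, and these neighbours in the order do not differ beyond their spread. Col1a1 averaged 28.3 ± 4.69 and Col1a2 22.8 ± 4.03 CPM per kilobase in sham hearts at 4 weeks. Col8a1 ranked 14 in these hearts and 8 in nAAC hearts of every age.

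Of the chains without enough counts, Col6a4 had at most 1 count in any library, Col10a1 at most 3, Col6a5 4, Col9a1 5, Col17a1 8 and Col24a1 10. Col2a1, the chain of cartilage collagen, reached 101 counts in nAAC 4-week replicate 2, and its median over the libraries was 2 counts. A count of 0 in a library of this size allows up to 3 counts, at most 0.095 CPM, and covers counting error only.

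Set against sham, nAAC hearts show the chains under a constriction left in place since birth. At 4 weeks the chains were split: 14 of the 37 rose and 5 fell past the threshold of 0.05 on p-values adjusted over all genes (edgeR), beside 40.7% of all genes (19.5% higher and 21.2% lower). At 6 weeks 28 chains rose and 3 fell, beside 48.3% of all genes (24.5% higher and 23.8% lower). At 8 weeks 30 rose and 2 fell, beside 47.2% of all genes (23.8% higher and 23.5% lower). The median log2 fold change of the 37 chains was 0.28, 1.34 and 1.10, and that of all genes tested -0.026, 0.016 and 0.018. Libraries of the groups did not overlap for 8 higher and 7 lower chains at 4 weeks, for 25 and 1 at 6 weeks, and for 24 and 2 at 8 weeks. Of all genes tested, 10.8, 18.3 and 18.4% were higher and 12.6, 18.9 and 19.6% lower with no overlap. At 8 weeks the rises reached from 0.50 (Col20a1) on the log2 scale to 5.74 (Col9a2).

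Rev-nAAC against nAAC sets the reversible beside the lasting constriction, and Rev-nAAC against sham gives the distance from sham. These comparisons share their nAAC and sham libraries, so their values are set side by side. Since the age of release is not given, the time from release to each sampling is not known. Nor is it stated that release came before 4 weeks. Against nAAC, 1 chain, Col6a6, rose and 1, Col9a2, fell in Rev-nAAC hearts at 4 weeks, beside 2.55% of all genes (0.79% higher and 1.76% lower). At 6 weeks 2 (Col6a6 and Col23a1) rose and 25 fell, beside 25.9% of all genes (13.8% higher and 12.1% lower), and at 8 weeks 2 rose and 24 fell, beside 32.9% of all genes (16.9% higher and 16.0% lower). The median log2 difference of the 37 chains was -0.30, -1.01 and -1.04, against 0.010, 0.0083 and 0.026 for all genes. Libraries of the groups did not overlap for 0 higher and 0 lower chains at 4 weeks, for 1 and 22 at 6 weeks and for 2 and 20 at 8 weeks. Of all genes tested, 0.809, 8.59 and 10.3% were higher and 0.842, 8.15 and 9.91% lower with no overlap. Against sham, 9 chains were higher and 12 lower at 4 weeks, beside 25.3% of all genes (12.2% higher and 13.1% lower). At 6 weeks 5 were higher and 0 lower, beside 17.1% of all genes (8.66% higher and 8.39% lower). At 8 weeks 9 were higher and 7 lower, beside 35.6% of all genes (18.3% higher and 17.3% lower). The median log2 difference from sham was -0.0067, 0.33 and 0.22.

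The 4-week count of Rev-nAAC against nAAC and the 6-week distance from sham each turned on single libraries. Without Rev-nAAC 4-week replicate 3, 12 chains differed from nAAC at 4 weeks, of which 11 were lower. Without replicate 1 or replicate 5 of nAAC at that age 6 and 4 differed, and without replicate 3 of nAAC 1 did, Col9a2. DESeq2 called 5 chains and limma voom 14 in this comparison. The count above sham at 6 weeks was 10 without Rev-nAAC replicate 4, 1 without replicate 3 and 3 without replicate 1. In males alone, with 1 nAAC library at 6 weeks and 1 Rev-nAAC library at 8 weeks that is assumed to vary like the other groups, the counts of chains that differed from nAAC were 9 and 2, and 3 differed from sham at 8 weeks. That male Rev-nAAC library, replicate 5, was the highest of its group in Col1a1, Col1a2 and Col5a2. With sex as a covariate over all libraries these counts were 27, 25 and 11. Among the chains followed singly under the alternatives, some calls against nAAC were lost in males. At 6 weeks they were those of Col1a1, Col1a2, Col3a1, Col4a1, Col4a2, Col12a1 and Col22a1, with log2 values from -1.88 (Col12a1) to -0.44 (Col4a1), and that of Col23a1 at -0.026. At 8 weeks they were those of Col1a1, Col1a2, Col3a1, Col4a1, Col5a2, Col8a1, Col8a2, Col9a2, Col12a1, Col14a1, Col15a1 and Col22a1, with values from -2.94 (Col9a2) to -0.36 (Col15a1), and that of Col23a1 at 1.07. Against sham at 8 weeks the calls of Col6a3 (-0.35), Col6a6 (-0.97), Col7a1 and Col13a1 (both 1.40) were lost in males, beside those of Col1a1 and Col3a1. Without the 4 libraries of doubtful label or content named above, 20, 31 and 32 chains differed between nAAC and sham and 5, 27 and 25 between Rev-nAAC and nAAC.

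**Figure D2:**
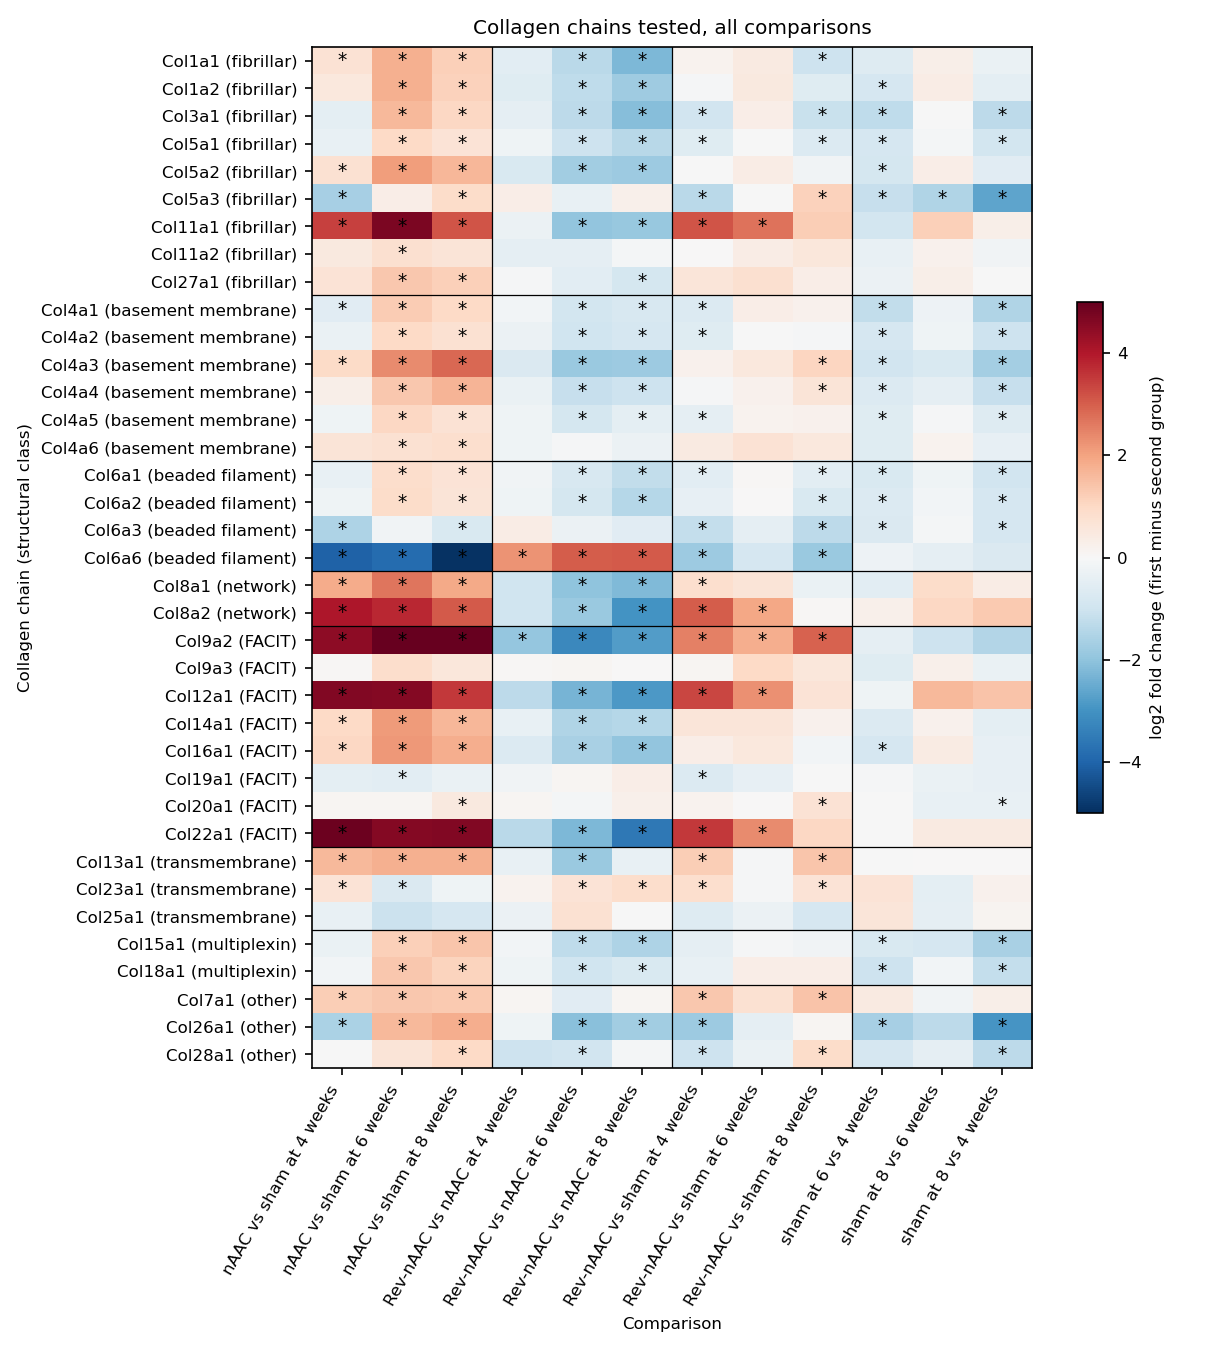
Log2 fold change of the 37 tested chains, in rows by structural class, in the 9 comparisons of operations and the 3 of ages within sham hearts, in columns, where stars mark an adjusted p under 0.05 and the colour scale ends at -5 and 5. Most rows are red for nAAC against sham at 6 and 8 weeks and blue for Rev-nAAC against nAAC, whereas Col6a6 has the opposite colours, and Col9a2 at 5.04 and 5.74 lies past the end of the scale.

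Sham hearts give the course of the chains with age alone. From 4 to 6 weeks 17 of the 37 chains fell and 0 rose, beside 16.9% of all genes (7.32% higher and 9.58% lower). From 6 to 8 weeks 1 fell, Col5a3, beside 1.83% of all genes (1.06% higher and 0.771% lower), and from 4 to 8 weeks 16 fell and 0 rose, beside 22.7% of all genes (10.7% higher and 12.0% lower). The declines from 4 to 8 weeks held Col3a1, 5 of the 6 type IV chains, Col5a1, Col5a3, Col6a1, Col6a2, Col6a3 and both multiplexins. Col3a1 fell by 1.29 ± 0.30 (SE) on the log2 scale from 4 to 8 weeks, Col4a1 by 1.51 ± 0.16, Col15a1 by 1.62 ± 0.26 and Col5a3 by 2.65 ± 0.31 (largest adjusted p = 0.00152). Col1a1 changed by -0.34 ± 0.27 and did not pass (adjusted p = 0.396). The count from 4 to 6 weeks was 10 without sham 4-week replicate 1, and 11 without either replicate 4 of that group or replicate 2 at 6 weeks.

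Tested as an interaction, the log2 difference between nAAC and sham was larger at 6 than at 4 weeks for 18 chains and smaller for 1, Col23a1, beside 17.3% of all genes (8.96% higher and 8.32% lower). Between 8 and 4 weeks it was larger for 12 chains and smaller for 0, beside 13.6% of all genes (6.86% higher and 6.7% lower). Between 8 and 6 weeks edgeR called 0 chains, beside 0.162% of all genes (0.0583% higher and 0.104% lower), with 0 at an unadjusted p under 0.05, 0 by DESeq2 and 0 by limma voom. The fall of the sham level between 4 and 6 weeks enters these interactions. In males alone, with 1 nAAC library at 6 weeks, 6 chains passed for 6 against 4 weeks. For the difference between Rev-nAAC and nAAC, 2 chains were lower at 6 than at 4 weeks, Col4a1 (-0.80) and Col4a5 (-0.66), beside 2.69% of all genes (1.72% higher and 0.971% lower), and leaving out 1 library gave from 0 to 7. For 8 against 6 weeks edgeR called 0 chains, beside 0.0907% of all genes (0.0389% higher and 0.0518% lower), with 3 at an unadjusted p under 0.05, 0 by DESeq2 and 5 by limma voom.

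Marker genes of other cell types were followed in the same comparisons. The summed level of 9 fibroblast markers ran from 2553 to 3101, 2025 to 2685 and 1891 to 2669 CPM in sham libraries at 4, 6 and 8 weeks. It ran from 3430.3 to 5642, 3256 to 4703 and 3138 to 5271 CPM in nAAC and from 3942 to 5589, 2671 to 4099.7 and 4305 to 5409 CPM in Rev-nAAC. At 8 weeks the fibroblast sum of every Rev-nAAC library lay above every sham library. Of the 9 markers 4 were higher and 0 lower than sham there, beside 18.3 and 17.3% of all genes. Against nAAC 2 were higher and 1 lower, beside 16.9 and 16.0%. Of these markers 3, 6 and 5 rose and 1, 0 and 0 fell in nAAC against sham. Decorin (Dcn) and lumican (Lum) of that list are also in the list of crosslinking and fibril genes, and Ddr2 in that of receptors. The sum of 8 cardiomyocyte markers ran from 49411 to 66139 CPM in sham and from 31861 to 40043 CPM in nAAC libraries at 8 weeks. Of the cardiomyocyte markers 4, 7 and 5 of 8 fell in nAAC and none rose, and neither list had a member at 0 in all libraries of a group. Of 6 macrophage markers 3, 1 and 2 fell and 0, 1 and 0 rose, of 7 mural cell markers 2, 2 and 1 fell and 0, 0 and 2 rose, and of 5 red cell markers 0, 5 and 4 rose. Of 4 atrial markers tested 1 rose at each age, and the 1 fat cell marker tested did not pass. The part of these markers in the collagen values was not tested. These counts, and those of chain classes and markers below, stand beside the shares of all genes. In nAAC against sham 19.5, 24.5 and 23.8% were higher and 21.2, 23.8 and 23.5% lower at 4, 6 and 8 weeks. In Rev-nAAC against nAAC 0.79, 13.8 and 16.9% were higher and 1.76, 12.1 and 16.0% lower. The falls of mural cell markers in nAAC lie near these shares.

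Of the 9 fibril-forming chains tested, 3 rose and 1 fell in nAAC hearts at 4 weeks, and 8 and 8 rose with 0 and 0 falls at 6 and 8 weeks. In Rev-nAAC against nAAC 0, 6 and 7 fell and none rose at the 3 ages. Col1a1, the main chain of type I collagen, was at 237, 176, 166, 189 and 160.4 CPM in sham replicates 1 to 5 at 4 weeks and at 201, 324, 418, 329.6 and 246 CPM in nAAC. The groups overlapped, since nAAC replicate 1 lay below sham replicate 1. At 8 weeks Col1a1 was at 119, 108, 203, 178 and 123 CPM in sham, 273, 358, 352, 413 and 262 in nAAC and 60.6, 47.6, 56.2, 62.0 and 127 in Rev-nAAC. All nAAC libraries lay above all others at this age, and 4 of the 5 Rev-nAAC libraries lay below every sham library. Its log2 fold change of nAAC against sham was 0.71 ± 0.28, 1.78 ± 0.28 and 1.18 ± 0.28 (SE) at 4, 6 and 8 weeks (largest adjusted p = 0.0364, at 4 weeks). The 4-week call was lost under 8 of 20 alternatives, among them leaving out nAAC replicate 2, 3 or 4 or sham replicate 2, 3, 4 or 5, with values from 0.57 to 1.02 over all alternatives. For Rev-nAAC against nAAC it was -0.54 ± 0.27, -1.35 ± 0.28 and -2.23 ± 0.29, and the latter 2 passed. Against sham, Rev-nAAC differed by 0.17 ± 0.27, 0.43 ± 0.27 and -1.05 ± 0.28, and the value at 8 weeks passed (adjusted p = 0.00287). That call was lost in males alone, where the value was -0.20 (adjusted p = 0.789) with 1 Rev-nAAC library.

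Col1a2, the partner chain of type I, had log2 fold changes of 0.55 ± 0.28, 1.77 ± 0.29 and 1.16 ± 0.28 for nAAC against sham, and the first did not pass (adjusted p = 0.115). Its difference between Rev-nAAC and nAAC was -0.60 ± 0.28, -1.29 ± 0.28 and -1.78 ± 0.29, past the threshold at 6 and 8 weeks, and against sham it was -0.056 ± 0.28, 0.49 ± 0.28 and -0.62 ± 0.28 with none past it. Col3a1, the chain of type III collagen, was at 854, 671, 589, 787 and 612 CPM in sham and 355, 561, 610.4, 553 and 401 CPM in nAAC hearts at 4 weeks. These groups overlapped only through nAAC replicate 3, and the other 4 nAAC libraries lay below every sham library. At 6 weeks sham libraries lay at 265, 272, 343, 303 and 266 CPM and nAAC libraries at 633, 732, 1323, 1116 and 687 CPM, with no overlap. The log2 fold change was -0.50 ± 0.29 at 4 weeks (adjusted p = 0.174), 1.63 ± 0.30 at 6 weeks and 1.03 ± 0.30 at 8 weeks (adjusted p = 2.49e-05 and 0.0044). In Rev-nAAC hearts Col3a1 differed from nAAC by -0.44 ± 0.29, -1.29 ± 0.30 and -2.13 ± 0.31 and from sham by -0.94 ± 0.30, 0.34 ± 0.29 and -1.10 ± 0.30, so it was below sham at 4 weeks (adjusted p = 0.0163) and at 8 weeks (0.00354). The 4-week call against sham was lost without Rev-nAAC replicate 2 (-0.80) or replicate 4 (-0.82) and in males alone (-0.64). The 8-week call was lost in males, with -0.30 (adjusted p = 0.695).

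Type V chains moved apart. Col5a2 was at 45.7, 42.8, 49.7, 42.7 and 48.6 CPM in sham, 154, 176, 260.2, 204 and 187 in nAAC and 67.8, 70.0, 66.4, 30.4 and 59.6 in Rev-nAAC hearts at 6 weeks, and nAAC lay above all other libraries. Rev-nAAC replicate 4 lay below every sham library while the other 4 lay above. Col5a2 rose by 0.74 ± 0.25, 2.096 ± 0.26 and 1.65 ± 0.26 on the log2 scale in nAAC, fell against nAAC in Rev-nAAC hearts at 6 and 8 weeks (-0.75, -1.74 and -1.83 at the 3 ages) and differed from sham by -0.0067, 0.36 and -0.18 with none past the threshold. The 4-week rise was lost without nAAC replicate 3 (0.51). Col5a1 had log2 fold changes of -0.39, 0.99 and 0.70 in nAAC against sham, past the threshold at 6 and 8 weeks. Col5a3 was at 46.1, 67.1, 61.0, 76.7 and 64.7 CPM in sham and 15.4, 21.3, 19.3, 18.2 and 25.6 CPM in nAAC hearts at 4 weeks, and the groups did not overlap. In sham hearts it then declined to 11.8, 8.90, 9.59, 10.2 and 9.89 CPM at 8 weeks, when nAAC libraries lay at 19.6, 16.5, 17.8, 20.7 and 19.4 CPM, all above sham. Its log2 fold change went from -1.66 ± 0.30 at 4 weeks to 0.32 ± 0.29 at 6 and 0.90 ± 0.30 at 8 weeks (adjusted p = 2.45e-05, 0.377 and 0.0127). The interaction was 1.99 ± 0.41 for 6 against 4 weeks and 2.56 ± 0.42 for 8 against 4 weeks. Rev-nAAC hearts differed from sham by -1.34, -0.033 and 1.15, lower at 4 and higher at 8 weeks. At 6 weeks, nAAC replicates 3 and 4, at 61.4 and 58.3 CPM, stood above the other three.

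Col11a1, a chain of the cartilage fibril collagen type XI, was near the limit of counting in sham hearts, at 0.640, 0.129, 0.0962, 0.0629 and 0.0316 CPM at 4 weeks. In nAAC hearts of that age it was at 1.11, 3.73, 1.72, 3.26 and 0.869 CPM, above all sham libraries. Its log2 fold change in nAAC was 3.44 ± 0.76, 4.71 ± 0.84 and 3.13 ± 0.74 at the 3 ages (largest adjusted p = 5.67e-04), and Rev-nAAC stood above sham by 3.14 ± 0.76 and 2.73 ± 0.88 at 4 and 6 weeks. At 6 weeks the Rev-nAAC libraries ran from 0.0309 to 1.59 CPM, and the sham libraries from 0.0343 to 0.189 CPM. Rev-nAAC replicate 4 held 1 count, as did sham replicates 3 and 4, and Rev-nAAC replicate 5 lay within the sham range. The call above sham at 6 weeks (adjusted p = 0.0277) was lost without Rev-nAAC replicate 1 or 3 or without sham replicate 2, 3 or 4, with log2 differences of 2.53, 2.15, 2.72, 2.53 and 2.53. Col27a1, a fibril chain of cartilage and bone, had log2 fold changes of 0.67, 1.34 and 1.198, past the threshold at 6 and 8 weeks. Col11a2 rose at 6 weeks (0.81), with values of 0.47 and 0.65 at the other ages that did not pass.

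Ratios of counts within a library need no scaling between libraries and were tested for 2 pairs of chains, in 18 tests. The log2 ratio of Col3a1 to Col1a1 counts was 1.85, 1.93, 1.83, 2.06 and 1.93 in sham replicates 1 to 5 at 4 weeks, 0.82, 0.79, 0.55, 0.75 and 0.71 in nAAC and 0.99, 0.48, 0.79, 0.78 and 0.91 in Rev-nAAC. Every sham library lay above every library of the other groups. The difference from sham was -1.198 in nAAC and -1.13 in Rev-nAAC (two-sided exact permutation test, p = 0.00794 for both, the smallest that 5 against 5 libraries allow; adjusted over the 18 tests, 0.0286). Without the doubted libraries, which leaves 3 nAAC and 4 Rev-nAAC libraries, the differences were -1.23 and -1.05 (exact permutation, adjusted p = 0.107 and 0.0714). The groups still did not overlap, and the smallest p that the test allows is larger with fewer libraries. At 6 weeks the difference between nAAC and sham was -0.17 (exact p = 0.0476, adjusted 0.122), and at 8 weeks it was -0.14 (exact p = 0.262, adjusted 0.589). The mean sham ratio was 1.92 ± 0.090, 1.28 ± 0.099 and 0.95 ± 0.22 at 4, 6 and 8 weeks (SD, n = 5).

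The log2 ratio of Col1a1 to Col1a2 counts was -0.61 ± 0.024 in sham hearts at 4 weeks, and 0.18 higher in nAAC and 0.24 higher in Rev-nAAC (exact p = 0.00794, adjusted 0.0286, for both). With 1 library left out both still passed, and the difference in nAAC ran from 0.094, without nAAC replicate 5, to 0.21. That in Rev-nAAC ran from 0.17 to 0.29. At 8 weeks it was -0.90, -0.86, -1.17, -0.62 and -0.95 in Rev-nAAC replicates 1 to 5 and -0.32, -0.61, -0.40, -0.40 and -0.56 in nAAC, with no overlap. That difference was -0.44 (exact p = 0.00794, adjusted 0.0286), and the difference from sham -0.41 (exact p = 0.0159, adjusted 0.0476), where the groups overlapped. With 1 library left out, the 8-week call against nAAC was lost in 4 runs, without Rev-nAAC replicate 1, 2, 3 or 5 (exact permutation, largest adjusted p = 0.0571). In those runs the groups still did not overlap, and the smallest p that the test allows rises when a library is left out. Over all such runs the difference from nAAC ran from -0.51 to -0.38. The call against sham was lost in 8, all those run except without sham replicate 2 and without Rev-nAAC replicate 4 (exact permutation, largest adjusted p = 0.0952). In other pairs, given with no test, the median ratio of Col5a1 to Col5a2 counts was 1.59 in sham and 0.719 in nAAC hearts at 4 weeks, and that of Col6a3 to Col6a1 0.577 and 0.273. The median ratio of Col4a3 to Col4a4 counts was 0.391 in sham and 0.860 in nAAC hearts at 8 weeks. The median ratio of Col4a1 to Col4a2 counts lay between 1.17 and 1.63 over the 9 groups. Sham libraries ran from 1.58 to 1.67 at 4 weeks and from 1.15 to 1.28 at 6 weeks. The nAAC libraries ran from 1.27 to 1.43 and from 1.40 to 1.52, all below sham at 4 weeks and all above it at 6 weeks.

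**Figure D3:**
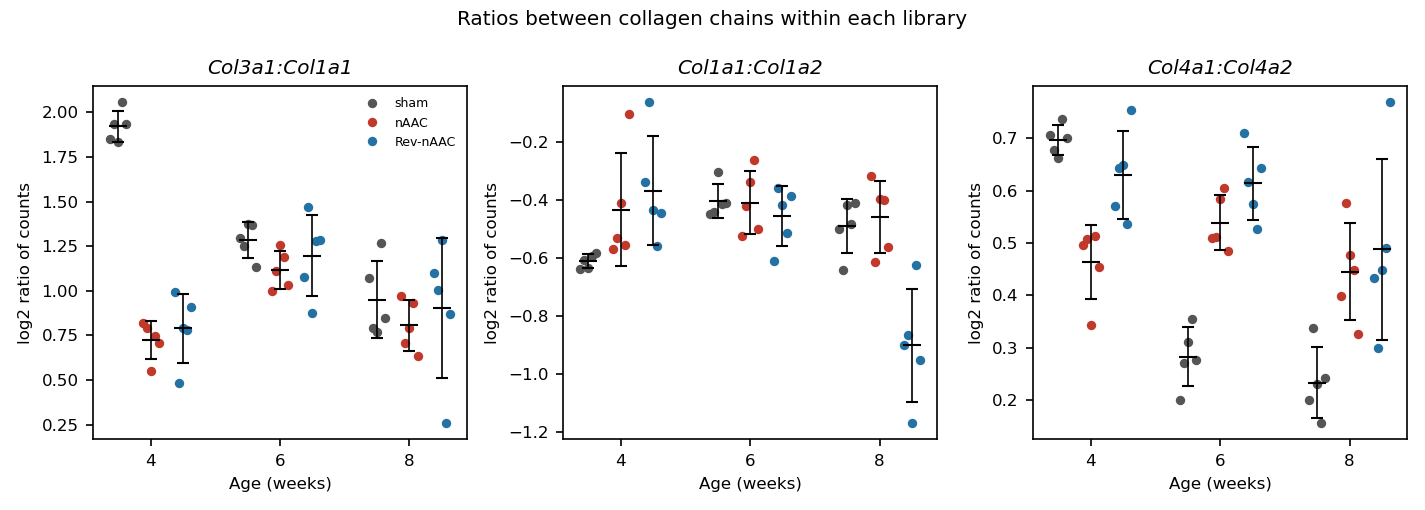
Log2 ratios of counts (y axis) within each library for 3 pairs of chains, Col3a1 to Col1a1, Col1a1 to Col1a2 and Col4a1 to Col4a2, by age and operation, with a point for each library and the mean and SD of each group in black. For Col3a1 to Col1a1 the sham libraries at 4 weeks lie between 1.83 and 2.06, above all nAAC and Rev-nAAC libraries of that age.

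Among the 6 type IV chains of the basement membrane, 1 rose and 1 fell in nAAC hearts at 4 weeks, whereas all 6 rose at 6 weeks and all 6 at 8 weeks. In Rev-nAAC against nAAC 0, 5 and 5 fell at the 3 ages. Col4a1 was at 1038, 1144, 1084, 1394 and 1129 CPM in sham and 600.0, 939, 898, 829.5 and 668 CPM in nAAC hearts at 4 weeks, and all nAAC libraries lay below all sham libraries. At 8 weeks sham libraries lay at 458, 340.1, 442, 453 and 332 CPM, nAAC at 770.5, 829, 827, 841 and 738 and Rev-nAAC at 452, 429.7, 440.1, 470.3 and 530.0. Sham had fallen by then and nAAC stood above both other groups. The log2 fold change was -0.56 ± 0.16, 1.25 ± 0.16 and 0.98 ± 0.16 for nAAC against sham (adjusted p = 0.00533, 4.73e-08 and 3.66e-06), -0.13 ± 0.16, -0.92 ± 0.16 and -0.79 ± 0.16 for Rev-nAAC against nAAC and -0.68 ± 0.16, 0.33 ± 0.16 and 0.20 ± 0.16 for Rev-nAAC against sham. The 4-week fall in nAAC was lost in males alone (-0.31), with nAAC replicate 1 grouped as sham by its tag (-0.35, adjusted p = 0.115) and without the doubted libraries (-0.38). Col4a2, which shares the trimer and the promoter region with Col4a1, had values of -0.32 ± 0.16, 0.98 ± 0.16 and 0.76 ± 0.16 for nAAC against sham, the first not past the threshold (adjusted p = 0.109). Its values were -0.30 ± 0.16, -0.98 ± 0.16 and -0.83 ± 0.16 for Rev-nAAC against nAAC and -0.62 ± 0.16, -0.0032 ± 0.16 and -0.068 ± 0.16 for Rev-nAAC against sham, past the threshold against sham at 4 weeks.

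Col4a3, known from the basement membrane of kidney and lung, had log2 fold changes of 0.94 ± 0.32, 2.36 ± 0.33 and 2.88 ± 0.34 in nAAC, the highest values among the type IV chains at each age. It was at 3.94, 4.19, 5.30, 4.74 and 3.04 CPM in sham, 23.6, 37.1, 38.1, 28.3 and 29.2 in nAAC and 8.27, 8.12, 9.86, 7.27 and 11.1 in Rev-nAAC hearts at 8 weeks, and no 2 of these groups overlapped. Rev-nAAC stood above sham by 1.07 ± 0.34 at that age (edgeR, adjusted p = 0.0114). Its head-to-head neighbour Col4a4 had log2 fold changes of 0.28, 1.36 and 1.69 and stood above sham by 0.65 in Rev-nAAC at 8 weeks. Col4a5 had values of -0.22, 1.04 and 0.72 and Col4a6 of 0.66, 0.78 and 0.84, both past the threshold at 6 and 8 weeks. The sum of 7 endothelial markers ran from 1847 to 2122 CPM in sham and from 1453 to 1962 CPM in nAAC hearts at 4 weeks, and from 1157 to 1466 and 1253 to 1694 CPM at 8 weeks, and none of the 7 was at 0 in a whole group. In nAAC against sham 3 of them fell at 4 weeks, and 3 and 3 rose at 6 and 8 weeks. Their part in the type IV values was not tested.

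Type VI chains parted. Col6a1 and Col6a2, which share a trimer with Col6a3, had log2 fold changes of -0.37, 0.87 and 0.68 and -0.20, 0.90 and 0.66 in nAAC against sham, past the threshold at 6 and 8 weeks. Col6a3 was at 115, 112, 106, 127 and 102 CPM in sham and 37.2, 47.3, 27.6, 46.0 and 33.0 CPM in nAAC hearts at 4 weeks with no overlap. Its log2 fold change was -1.56 ± 0.25, -0.18 ± 0.25 and -0.75 ± 0.25 (adjusted p = 6.28e-06, 0.579 and 0.0124), so it fell at 4 and 8 weeks. In Rev-nAAC hearts Col6a3 differed from sham by -1.199 ± 0.25 and -1.30 ± 0.25 at 4 and 8 weeks, and all 4 tested type VI chains were lower at 8 weeks.

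Col6a6, a longer chain thought to take the place of Col6a3 in type VI trimers, ran against most other chains. It was at 8.80, 8.31, 6.22, 7.95 and 8.499 CPM in sham, 1.001, 0.435, 0.178, 0.450 and 0.267 in nAAC and 4.20, 0.597, 0.564, 4.62 and 1.35 in Rev-nAAC hearts at 4 weeks. Every nAAC and Rev-nAAC library lay below every sham library. At 8 weeks the sham libraries were at 5.39, 5.69, 2.86, 5.27 and 5.10 CPM, nAAC at 0.139, 0.138, 0.133, 0.208 and 0.158 and Rev-nAAC at 1.27, 0.803, 0.933, 1.23 and 2.48, and no 2 of these groups overlapped. The log2 fold change of nAAC against sham was -4.06 ± 0.49, -3.84 ± 0.49 and -4.93 ± 0.55 (largest adjusted p = 3.09e-08). Rev-nAAC was higher than nAAC by 2.24 ± 0.48, 3.01 ± 0.48 and 3.08 ± 0.57 (largest adjusted p = 0.0103) and differed from sham by -1.82 ± 0.42, -0.82 ± 0.41 and -1.86 ± 0.43, lower at 4 and 8 weeks. At 4 weeks Rev-nAAC replicates 2 and 3 lay within the nAAC range and the other 3 above it. Without nAAC 4-week replicate 3 the 4-week difference from nAAC was 2.04 and no longer passed (adjusted p = 0.0648), and over its alternatives that p ran from 0.00122 to 0.382, the highest with the compared groups alone in the fit. The sum of 5 Schwann cell markers ran from 11.3 to 14.2 CPM in sham, 2.68 to 7.86 in nAAC and 3.23 to 10.1 in Rev-nAAC hearts at 4 weeks, and from 7.30 to 9.42, 1.37 to 4.35 and 5.58 to 6.55 CPM at 8 weeks. Of the 4 Schwann markers tested, 3, 4 and 4 fell in nAAC, none was at 0 in a whole group, and their part in the Col6a6 values was not tested.

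The network chains of type VIII, known from vessel walls and the cornea, rose in nAAC at every age. Col8a1 was at 36.2, 33.3, 38.3, 39.2 and 43.8 CPM in sham, 208, 234, 290.5, 227 and 256 in nAAC and 71.6, 83.3, 64.1, 18.3 and 63.8 in Rev-nAAC hearts at 6 weeks. All nAAC libraries lay above all others, and Rev-nAAC replicate 4 lay below every sham library. The log2 fold change was 1.84 ± 0.31, 2.67 ± 0.32 and 1.89 ± 0.31 for nAAC against sham (largest adjusted p = 1.03e-05), -1.01 ± 0.30, -2.01 ± 0.31 and -2.20 ± 0.31 for Rev-nAAC against nAAC, past the threshold at 6 and 8 weeks, and 0.84 ± 0.30, 0.66 ± 0.30 and -0.32 ± 0.30 for Rev-nAAC against sham, past it at 4 weeks. That last call (adjusted p = 0.0376) was lost without Rev-nAAC replicate 3 or without sham replicate 2, 3, 4 or 5, with 0.45 without the first. It was also lost with no filter, with the replicate block (0.76) and with nAAC replicate 1 grouped as sham (0.41). Col8a2 had log2 fold changes of 4.02 ± 0.57, 3.75 ± 0.57 and 3.06 ± 0.52 in nAAC from 2.13, 0.388, 0.738, 0.283 and 0.569 CPM in sham and 8.60, 14.4, 22.9, 15.8 and 5.88 CPM in nAAC at 4 weeks, with no overlap. Rev-nAAC stood above sham in Col8a2 by 3.04 and 1.92 at 4 and 6 weeks and by 0.073 ± 0.53 at 8 weeks, which did not pass (adjusted p = 0.93).

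Of the 8 FACIT chains tested, 5, 5 and 6 rose in nAAC at 4, 6 and 8 weeks and 0, 1 and 0 fell. In Rev-nAAC against nAAC 1, 5 and 5 fell. Col12a1, which coats fibrils under tension, was at 5.88, 2.14, 2.25, 1.98 and 1.74 CPM in sham, 38.4, 104, 103, 89.9 and 16.2 in nAAC and 19.1, 17.7, 76.4, 9.02 and 18.8 in Rev-nAAC hearts at 4 weeks. No sham library reached either other group. The log2 fold change was 4.65 ± 0.65, 4.57 ± 0.65 and 3.53 ± 0.60 for nAAC against sham (largest adjusted p = 7.65e-06). For Rev-nAAC against nAAC it was -1.32 ± 0.54, -2.31 ± 0.57 and -2.85 ± 0.57, past the threshold at 6 and 8 weeks, and against sham 3.33 ± 0.62, 2.27 ± 0.62 and 0.68 ± 0.56, past it at 4 and 6 weeks. Rev-nAAC 6-week replicates 4 and 5, at 0.433 and 3.73 CPM, stood below the other three. These ran from 15.3 to 23.7 CPM, and without replicate 3 the 6-week call against sham was lost (1.84, adjusted p = 0.0509), as it was with the compared groups alone (2.27). The 4-week call against sham was lost with nAAC replicate 1 grouped as sham (1.68, adjusted p = 0.0751).

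Col9a2, a chain of the cartilage FACIT type IX, had the largest rise of any chain at 6 and 8 weeks. Its libraries lay at 0.123, 0.125, 0.344, 0.0296 and 0.0287 CPM in sham, 4.99, 6.55, 8.18, 7.16 and 8.93 in nAAC and 0.847, 1.43, 1.44, 0.570 and 0.884 in Rev-nAAC hearts at 8 weeks, and no 2 groups overlapped. The sham values are a few reads each. The log2 fold change was 4.46 ± 0.48, 5.04 ± 0.51 and 5.74 ± 0.55 for nAAC against sham, -1.94 ± 0.40, -3.24 ± 0.43 and -2.79 ± 0.43 for Rev-nAAC against nAAC and 2.53 ± 0.48, 1.80 ± 0.53 and 2.95 ± 0.58 for Rev-nAAC against sham, all past the threshold (largest adjusted p = 0.0168). The Rev-nAAC mean lay between those of sham and nAAC at every age, and the 6-week call against sham was lost without Rev-nAAC replicate 3 (1.46). The 4-week call against nAAC was lost in males (-1.72, adjusted p = 0.0676) and with the compared groups alone (-1.94, adjusted p = 0.356). The 4-week call against sham was lost with nAAC replicate 1 grouped as sham (0.84, adjusted p = 0.321). Col9a3, its partner, had values of 0.055, 0.89 and 0.56 in nAAC with none past the threshold, and Col9a1 was not tested. Col22a1, known from muscle-tendon junctions, was at 0.396, 0.388, 0.321, 0.534 and 0.348 CPM in sham and 5.84, 14.6, 19.8, 13.4 and 5.58 CPM in nAAC hearts at 4 weeks, with no overlap. Its log2 fold changes were 4.89 ± 0.67, 4.60 ± 0.67 and 4.61 ± 0.64 in nAAC, and it differed between Rev-nAAC and nAAC by -1.36 ± 0.53, -2.23 ± 0.55 and -3.59 ± 0.59, past the threshold at 6 and 8 weeks, and between Rev-nAAC and sham by 3.52 ± 0.66, 2.37 ± 0.68 and 1.03 ± 0.67, past it at 4 and 6 weeks, the latter lost without Rev-nAAC replicate 3 (1.64) and by limma voom. The 4-week call against sham was lost with nAAC replicate 1 grouped as sham (1.78).

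Col14a1, a FACIT of tendon and skin, was at 24.9, 21.6, 22.6, 22.9 and 21.9 CPM in sham, 97.5, 83.9, 129, 95.3 and 91.6 in nAAC and 65.2, 31.9, 36.7, 13.6 and 27.1 in Rev-nAAC hearts at 6 weeks. The nAAC libraries lay above all others, and Rev-nAAC replicate 4 was again below sham. Col14a1 rose in nAAC by 0.98 ± 0.28, 2.13 ± 0.29 and 1.64 ± 0.28, differed between Rev-nAAC and nAAC by -0.39 ± 0.27, -1.51 ± 0.28 and -1.42 ± 0.28, past the threshold at 6 and 8 weeks, and between Rev-nAAC and sham by 0.59 ± 0.28, 0.62 ± 0.28 and 0.22 ± 0.28 with none past it. Col16a1 rose by 1.03, 2.15 and 1.83 and differed between Rev-nAAC and nAAC by -1.63 and -1.97 at 6 and 8 weeks. Col19a1 fell at 6 weeks (-0.51 ± 0.22, adjusted p = 0.0483), a call that was lost under 14 of 19 alternatives, including 7 of the 10 that left out 1 library, namely nAAC replicates 1, 3 and 5 and sham replicates 1, 3, 4 and 5. Col20a1 rose at 8 weeks in nAAC (0.50) and was higher in Rev-nAAC than in sham (0.74). The sum of 8 cartilage and tendon markers ran from 7.09 to 20.02, 10.8 to 16.4 and 6.43 to 47.1 CPM in sham, from 116 to 395, 138 to 208 and 184 to 383 CPM in nAAC and from 31.3 to 181, 10.4 to 57.4 and 39.6 to 59.2 CPM in Rev-nAAC at 4, 6 and 8 weeks. Of the 6 tested, 6, 5 and 5 rose in nAAC, and Matn3 was at 0 in all libraries of 6 groups. Their part in the values of these chains was not tested.

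The multiplexins carry the endostatin-type fragments at their ends. Col15a1 was at 279, 273, 259.6, 314 and 266 CPM in sham and 194, 242, 261, 269 and 153 CPM in nAAC hearts at 4 weeks, where the groups overlapped. By 8 weeks the sham libraries had declined to 85.1, 83.5, 107, 88.5 and 89.3 CPM, while nAAC stood at 192, 218, 282, 260.0 and 218 and Rev-nAAC at 69.8, 56.3, 83.6, 26.0 and 163 CPM. No nAAC library overlapped the other groups, and Rev-nAAC spread over both sides of sham. Its log2 fold change was -0.31 ± 0.26, 1.19 ± 0.26 and 1.37 ± 0.26 for nAAC against sham, the first not past the threshold (adjusted p = 0.344). It was -0.15 ± 0.26, -1.26 ± 0.26 and -1.55 ± 0.26 for Rev-nAAC against nAAC and -0.46 ± 0.26, -0.066 ± 0.26 and -0.18 ± 0.26 for Rev-nAAC against sham, none of the latter past it. In the 1 male Rev-nAAC library at 8 weeks the value against male sham was 0.85. That lies on the other side of 0 and further from 0 than the -0.18 of all libraries. Col18a1 had values of -0.15, 1.34 and 1.10 in nAAC and rose at 6 and 8 weeks.

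Of the 3 membrane-spanning chains tested, Col13a1, found at the neuromuscular junction, rose in nAAC at each age (1.61, 1.78 and 1.76). In Rev-nAAC it was at 2.43, 1.61, 2.66, 4.13 and 2.74 CPM at 8 weeks, all above the sham libraries at 0.647, 1.59, 1.35, 0.741 and 0.889 CPM, a log2 difference of 1.38 ± 0.32 (adjusted p = 8.82e-04). Col23a1 rose in nAAC at 4 weeks and fell at 6 weeks, with 0.69 ± 0.25, -0.72 ± 0.25 and -0.22 ± 0.25 at the 3 ages (adjusted p = 0.0252, 0.0159 and 0.495). It was higher in Rev-nAAC than in nAAC by 0.67 ± 0.25 and 0.89 ± 0.25 at 6 and 8 weeks. The 6-week fall was lost without nAAC replicate 3 (-0.56) or sham replicate 2 (-0.54) and in males alone (-0.24). The 6-week difference from nAAC (adjusted p = 0.0436) was lost under 11 of 19 alternatives, among them leaving out Rev-nAAC replicate 1, 2, 3 or 4 or nAAC replicate 3, 4 or 5. In males alone that value was -0.026. Col25a1 passed in none of the 9 comparisons of operations. It had at most 27 counts in a library, and its log2 values in nAAC against sham were -0.36, -1.06 and -0.84.

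Among the chains of other build, Col7a1, the anchoring fibril chain of skin, rose in nAAC by 1.24, 1.36 and 1.31 and stood above sham in Rev-nAAC by 1.33 and 1.41 at 4 and 8 weeks, and no value of Rev-nAAC against nAAC passed. Col26a1 turned direction with age. Sham libraries lay at 1.58, 1.26, 1.15, 1.85 and 1.33 CPM at 4 weeks and 0.0924, 0.187, 0.172, 0.237 and 0.229 CPM at 8 weeks, and nAAC libraries at 0.487, 0.435, 0.355, 0.253 and 0.869 and 0.251, 0.606, 0.425, 0.778 and 1.24 CPM. All nAAC libraries lay below sham at 4 weeks and above it at 8 weeks. Its log2 fold change was -1.59 ± 0.42, 1.61 ± 0.42 and 1.82 ± 0.47 (largest adjusted p = 0.00246), and the interaction was 3.20 ± 0.60 for 6 against 4 weeks (adjusted p = 1.75e-04) and 3.41 ± 0.63 for 8 against 4 weeks (adjusted p = 4.47e-04). These are low levels, with a highest count of 77 in any library. Col28a1 rose in nAAC at 8 weeks (0.99) and in Rev-nAAC was lower than sham at 4 weeks (-1.04) and higher at 8 weeks (0.90).

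**Figure D4:**
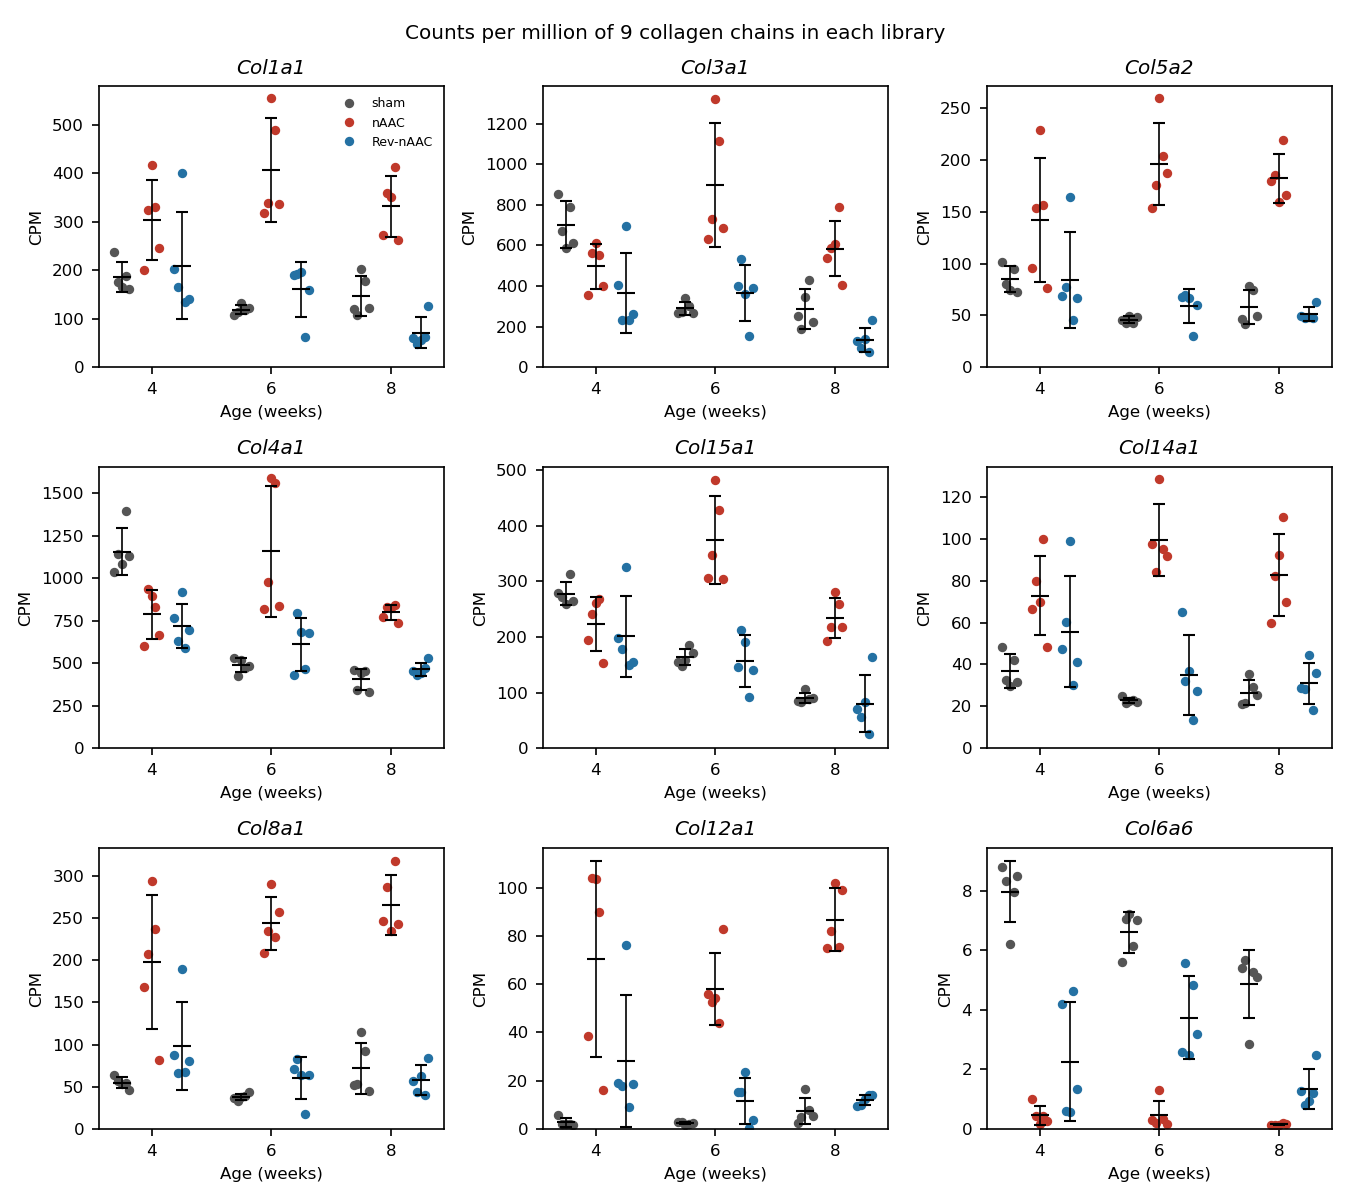
CPM (y axes, from 0) of 9 chains in each of the 45 libraries, by age (x axes) and operation, with a point for each library and the mean and SD of each group in black. Col12a1 and Col8a1 are raised in nAAC at all ages and Col6a6 is lowered, and the sham points of Col3a1, Col4a1 and Col15a1 drop after 4 weeks.

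The genes that make, process and read collagen were followed as lists. Their counts stand beside 19.5, 24.5 and 23.8% of all genes higher and 21.2, 23.8 and 23.5% lower in nAAC against sham at 4, 6 and 8 weeks, and 0.79, 13.8 and 16.9% higher and 1.76, 12.1 and 16.0% lower in Rev-nAAC against nAAC. Of 24 genes of collagen biosynthesis, 12, 14 and 13 rose and 4, 2 and 2 fell in nAAC against sham at 4, 6 and 8 weeks, and 0, 1 and 3 rose and 1, 12 and 16 fell in Rev-nAAC against nAAC. Their median log2 fold change in nAAC was 0.21, 0.40 and 0.32. P3h2, a prolyl 3-hydroxylase that acts on type IV chains, rose by 2.36 ± 0.25, 3.07 ± 0.26 and 2.77 ± 0.25, and its relative P3h3 by 1.04 ± 0.16, 1.24 ± 0.16 and 1.16 ± 0.16. Colgalt2, a collagen galactosyltransferase, fell at 4 weeks (-0.62 ± 0.14). Mia2, which helps export large cargo from the endoplasmic reticulum, fell at each age (-0.21 ± 0.076, -0.71 ± 0.076 and -0.40 ± 0.076), as did P3h4 (-0.33 ± 0.13, -0.89 ± 0.13 and -1.04 ± 0.13), a partner of lysyl hydroxylation.

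Of 19 genes for propeptide removal, crosslinking and fibril assembly, 17 were tested, and 10, 13 and 13 rose and 3, 3 and 3 fell in nAAC, with a median log2 fold change of 0.90, 1.33 and 1.15. In Rev-nAAC against nAAC 2, 10 and 13 fell and 1, 0 and 1 rose. Loxl3, a lysyl oxidase that crosslinks collagen, rose by 2.31 ± 0.29, 2.58 ± 0.29 and 2.75 ± 0.29, Bgn, the proteoglycan biglycan, by 1.90 ± 0.24, 2.22 ± 0.25 and 1.81 ± 0.24, and Pcolce2, an enhancer of procollagen cleavage, by 1.49 ± 0.18, 1.33 ± 0.18 and 1.23 ± 0.18. Some proteinase genes of this list went the other way. Tll2 had log2 values of -2.18 ± 0.44, -2.62 ± 0.44 and -3.46 ± 0.43, Adamts14 of -2.34 ± 0.36, -1.12 ± 0.35 and -1.16 ± 0.37 and Adamts3 of -0.64 ± 0.21, -0.80 ± 0.21 and -0.69 ± 0.21, all lower past the threshold.

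Of 15 receptor and uptake genes 14 were tested, and 6, 10 and 8 rose and 3, 2 and 2 fell in nAAC at the 3 ages, with a median log2 fold change of -0.016, 0.51 and 0.44. In Rev-nAAC against nAAC 0, 1 and 0 rose and 0, 7 and 6 fell. The anthrax toxin receptors, which bind collagens, parted, with Antxr1 at 0.52 ± 0.16, 1.05 ± 0.16 and 0.99 ± 0.16 and Antxr2 at -0.65 ± 0.11, -1.09 ± 0.11 and -0.94 ± 0.11. Itga10 and Itga11, collagen-binding integrins, rose by 0.82 ± 0.22, 1.38 ± 0.23 and 1.03 ± 0.22 and 1.12 ± 0.33, 1.997 ± 0.35 and 1.93 ± 0.35. Ddr1, a collagen-activated kinase, rose by 0.49 ± 0.10, 0.33 ± 0.10 and 0.50 ± 0.10. Adgrg1, a receptor of type III collagen in the brain, had values of 0.83 ± 0.17, 0.51 ± 0.17 and 0.31 ± 0.17, past the threshold at 4 and 6 weeks. The inhibitory immune receptor Lair1 had -0.99 ± 0.23, 0.57 ± 0.23 and 0.34 ± 0.23, lower at 4 and higher at 6 weeks, and Adgrg6, a receptor of type IV collagen, -0.67 ± 0.33, -1.23 ± 0.32 and -0.93 ± 0.31, past the threshold at 6 and 8 weeks. Of 8 collagen-degrading enzymes 2, 3 and 3 rose and 2, 1 and 1 fell in nAAC, with a median log2 fold change of 0.23, 0.64 and 0.47, and the 4-week shares of 2 in 8 lie near those of all genes. In Rev-nAAC against nAAC 0, 0 and 0 rose and 1, 3 and 2 fell. Cathepsin K, Ctsk, rose by 1.004 ± 0.18, 1.54 ± 0.19 and 1.30 ± 0.18 and the gelatinase Mmp2 by 0.63 ± 0.20, 1.60 ± 0.20 and 1.45 ± 0.20, while the membrane-type Mmp15 had -1.21 ± 0.15, -0.66 ± 0.15 and -0.97 ± 0.15, lower at each age. Mmp13, a collagenase, fell at 4 weeks (-3.45 ± 0.53).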

How the data were processed

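The deposited file holds counts of reads per gene for 45 libraries, used as deposited. Per the submitters' processing notes the authors' tools were HISAT2 2.1.0, HTSeq 0.11.2 and fastp 0.20.1, and the build was GRCm38/mm10. The annotation, the strand setting and the handling of shared reads are not given in the sources used here. Library totals of 31586082 to 35965976 counts set the precision, and a count of 0 allows up to 3 counts.

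Libraries were grouped by their titles. One edgeR 4.0.16 quasi-likelihood fit in R 4.3.3, with 1 mean per group over all 45 libraries, TMM scaling, and a minimum count of 10 and minimum total of 15, tested 15444 of 27007 genes, with Benjamini-Hochberg adjustment over all of them and a threshold of 0.05. Levels in CPM use the TMM-adjusted library total, and standard errors came from the fold change and its F statistic. For ratios of counts, exact permutation tests (two-sided, scipy 1.17.1) were used. The fit was tested on simulated data.

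The chains, the gene and marker lists and the tests were chosen with earlier results of these data known, and these results are not independent of them. A panel of 12 chains was given in every comparison of operations, with the 3 largest rises and falls of chains at 0.5 CPM or more, and from each list the 2 genes with the smallest p in each direction. Other chains were named by class with their values seen. Alternatives were RLE scaling, no filter, DESeq2 1.42.0, limma 3.58.1 voom with quality weights, the compared groups alone, the replicate number as a block, sex as covariate, males alone, 1 replicate regrouped by its tag, and each library left out. Leaving out the 4 doubted libraries was chosen after seeing the data. Male-only fits with 1 library in a group borrow their spread from the other groups. Promoter windows are from RefSeq, GRCm38.p6.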

Additional observations from a re-analysis of the deposited data

Results flagged for a closer look

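Single libraries stood apart from the other 4 of their group by Dixon's test in 25 of the 198 sets of a named chain and a group examined. The test used CPM that were not logged, and the same library can stand apart in many chains, so the sets are not independent. The count of 25 can therefore not be set against the rate of about 1 in 20 that chance gives for a single set. Rev-nAAC 4-week replicate 3 was the highest of its group in 10 chains, at 402 CPM for Col1a1, 543 for Col1a2, 165 for Col5a2, 189.5 for Col8a1 and 16.9 for Col8a2. The same library was at 6.25 CPM for Col9a2, 5.10 for Col11a1, 76.4 for Col12a1, 327 for Col15a1 and 13.6 for Col22a1.

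Rev-nAAC 6-week replicate 4 was the lowest of its group, at 62.8 CPM for Col1a1 and 30.4 CPM for Col5a2. Rev-nAAC 8-week replicate 5, the male of its group, was the highest, at 127 CPM for Col1a1, 245 for Col1a2, 63.4 for Col5a2, 2.48 for Col6a6 and 2.33 for Col22a1. Sham 4-week replicate 1 was the highest of its group at 2.13 CPM for Col8a2, 0.640 for Col11a1 and 5.88 for Col12a1. Of the remaining sets, Col6a3 was high in sham 6-week replicate 4 (74.1 CPM), Col6a6 low in sham 8-week replicate 3 (2.86 CPM) and high in nAAC 6-week replicate 3 (1.32 CPM), Col15a1 high in sham 8-week replicate 3 (107 CPM) and Col19a1 high in sham 4-week replicate 5 (2.05 CPM).

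The log2 difference between nAAC and sham differed between ages by the interaction term of the edgeR fit for several named chains. From 4 to 6 weeks it moved by 1.23 ± 0.39 (SE) in Col1a2, 2.14 ± 0.42 in Col3a1, 1.81 ± 0.23 in Col4a1, 1.30 ± 0.23 in Col4a2, 1.35 ± 0.35 in Col5a2 and 1.99 ± 0.41 in Col5a3. It moved by 1.38 ± 0.35 in Col6a3, 1.14 ± 0.39 in Col14a1, 1.51 ± 0.37 in Col15a1, 3.20 ± 0.60 in Col26a1 and -1.41 ± 0.35 in Col23a1. From 4 to 8 weeks it moved by 1.53 ± 0.42 in Col3a1, 1.54 ± 0.23 in Col4a1, 1.08 ± 0.23 in Col4a2, 2.56 ± 0.42 in Col5a3, 1.68 ± 0.37 in Col15a1 and 3.41 ± 0.63 in Col26a1. The difference between Rev-nAAC and nAAC moved by -0.80 ± 0.23 in Col4a1 from 4 to 6 weeks.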

How the results depend on the processing

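All counts of chains called between nAAC and sham stayed within 1.5 times their value under the alternatives run. The count for Rev-nAAC against nAAC at 4 weeks went from 2 to 5 with DESeq2, with nAAC replicate 1 grouped as sham and without the doubted libraries, to 14 with limma voom, to 0 with the compared groups alone in the fit, and from 1 to 12 when 1 library was left out. For Rev-nAAC against sham it was 13 at 4 weeks with that replicate as sham and 9 at 6 weeks with limma voom, with 1 to 10 at 6 weeks when 1 library was left out. In males alone 9 and 2 chains differed between Rev-nAAC and nAAC at 6 and 8 weeks, 3 between Rev-nAAC and sham at 8 weeks, and 6 in the change of the nAAC difference from 4 to 6 weeks. In sham, 11 chains were called from 4 to 6 weeks with no filter (10 to 15 when 1 library was left out), and from 6 to 8 weeks 2 by DESeq2, 3 by limma voom, 3 in males, 2 without the doubted libraries and 6 with the compared groups alone. The change of the Rev-nAAC to nAAC difference from 4 to 6 weeks gave 6 chains by DESeq2, 5 with sex as covariate, 1 with the regrouped replicate and 0 with no filter, limma voom, males, the doubted libraries left out or the compared groups alone (0 to 7 when 1 library was left out), and from 6 to 8 weeks 5 by limma voom.

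Some values for Rev-nAAC against sham that had not passed changed sign. Most of them lay near 0, while those of Col1a2 and Col8a1 at 8 weeks did not. The changed value furthest from 0 was that of Col15a1 in males at 8 weeks, 0.85, which rests on 1 Rev-nAAC library. At 4 weeks Col1a1 was -0.054 by limma voom (-0.20 to 0.30 with 1 library left out), and Col1a2 0.069 with sex, 0.25 in males and 0.070 without the doubted libraries (-0.47 to 0.085). Col5a2 was 0.013 with RLE, 0.014 with no filter, 0.012 by DESeq2, 0.11 with sex, 0.15 in males, 0.026 without the doubted libraries and 0.018 with the compared groups alone (-0.40 to 0.15). At 6 weeks Col4a2 was 0.065 by limma voom, 0.064 with sex, 0.25 in males and 0.00231 with the compared groups alone (-0.12 to 0.12), and Col15a1 0.013, 0.059 and 0.16 under the first 3 of these (-0.20 to 0.076). At 8 weeks, in males, Col1a2 was 0.27, Col5a2 0.13, Col8a1 0.24 and Col15a1 0.85; with sex as covariate Col5a2 was 0.057, Col4a2 0.11 and Col15a1 0.051, and Col15a1 was 0.040 without the doubted libraries (-0.62 to 0.032). Col23a1 between Rev-nAAC and nAAC at 6 weeks was -0.026 in males.

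Log2 ratios kept their direction where they had passed. With the replicate block as a sign-flip test, whose 5 pairs cannot pass by construction, those of Col3a1 to Col1a1 at 4 weeks were -1.198 (nAAC against sham) and -1.13 (Rev-nAAC against sham), and those of Col1a1 to Col1a2 0.18 and 0.24 at 4 weeks and -0.44 against nAAC and -0.41 against sham at 8 weeks, each with adjusted p = 0.161 by exact permutation. At most 2 of 5 same-numbered pairs of libraries deviated together (r over 0.1), so the numbers were not taken as pairs; the block moved no count of chains by over 1.5 times. With fewer libraries these ratios no longer passed: in males -1.25 and -1.07, then 0.14 and 0.17 at 4 weeks, and without the doubted libraries -1.23 and -1.05, then 0.11 and 0.17 at 4 weeks and -0.51 and -0.48 at 8 weeks. The smallest p that the exact test allows rises as libraries are left out. These runs therefore cannot decide whether the calls depend on the libraries removed. Of ratios that had not passed, Col1a1 to Col1a2 turned to 0.016 (Rev-nAAC against sham, 6 weeks) and -0.00689 (nAAC against sham, 8 weeks) in males, and Col3a1 to Col1a1 to 0.11 (Rev-nAAC against sham, 8 weeks) without the doubted libraries. With 1 library left out, Col1a1 to Col1a2 ran from -0.042 to 0.023 at 6 weeks and -0.00576 to 0.071 at 8 weeks for nAAC against sham, -0.011 to 0.15 and -0.51 to -0.38 for Rev-nAAC against nAAC at 4 and 8 weeks and -0.48 to -0.34 for Rev-nAAC against sham at 8 weeks, where Col3a1 to Col1a1 ran from -0.14 to 0.11. Male ratios were not run where a group held 1 male. Causes were not tested. Chains under about 1 CPM rest on few reads per library, and operation and sex cannot be fully told apart.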
